A study of Mus musculus with 18 samples.

Results

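The long-chain acyl-CoA synthetases are the enzymes of the Acsl gene family, and the 5 genes whose symbols are Acsl1, Acsl3, Acsl4, Acsl5 and Acsl6 were taken from the 54347 genes of the count table. The family was chosen by the measured level of Acsl5, which lay higher in brown than in white adipose tissue in these libraries, so differences of the members between brown and white tissue are given as a description without a test. Of the 5 genes, 4 passed the filter on low counts and were among the 18728 genes tested. Acsl6 did not pass it and is described by its counts alone.

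Each Acsl enzyme joins a long-chain fatty acid to coenzyme A at the cost of ATP, the step that commits the fatty acid to oxidation, to storage in triglyceride or to membrane phospholipid. The members differ in the fatty acids they prefer and in the membranes where they sit. In adipose tissue, Acsl1 is known as the main form in adipocytes and as an enzyme that brown adipocytes use to feed fatty acids into oxidation during heat production.

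Polyadenylated RNA of 6 mice was sequenced from 3 fat depots each, the brown fat between the shoulder blades (interscapular, iBAT), the white fat of the groin (inguinal, iWAT) and the white fat at the epididymis (epididymal, eWAT). The mice were 12 weeks old and on the C57BL/6N background. The study's methods state a chow diet for transcriptomics, its results text speaks of high-fat and control diets, and the labels give none. Of the mice, 3 were wild type (wt) and 3 were ΔGm15551 knockouts (ko), in which CRISPR/Cas9 had removed a stretch including exon 1 of the long noncoding RNA gene Gm15551 from every cell. There were thus 6 groups of 3 libraries, 18 in all, and a replicate number stands for 1 mouse within a genotype. The knockout had been crossed back to wild type mice, and no further treatment is named in the labels.

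Total estimated counts per library ranged from 14997901 to 34389586. The tissue labels held against their markers: the summed level of 7 brown adipocyte markers, among them Ucp1, ranged from 7310 to 12604 CPM in iBAT (counts divided by the effective library size and brought to a common total) against 28.9 to 323 CPM in iWAT, with 11.01 to 19.7 CPM in eWAT, while the mesothelial gene Upk3b reached 13.1 CPM or more in every eWAT library and at most 0.0646 CPM elsewhere. Gm15551 had 40 to 316 counts in the wild type libraries and 0 to 4 in the knockout libraries. Markers of other tissues set 4 libraries apart. In iWAT ko replicate 1, all 9 skeletal muscle genes were higher than in every other iWAT library and summed to 4484 CPM, against at most 22.8 CPM in the other iBAT and white libraries. The 8 lymphocyte genes summed to 866 CPM in iWAT wt replicate 3 and 366 CPM in iWAT ko replicate 2, against 2.72 to 18.01 CPM elsewhere. In eWAT ko replicate 3, 7 epididymis genes summed to 4821 CPM and 6 testis genes to 86.7 CPM, against at most 16.7 and 5.97 CPM elsewhere. The main values that move with these libraries are also given without them.

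The DNA just before the start of the members is shown for the 4 members tested, among them Acsl5 and Acsl3, the 2 whose iBAT libraries all lay above the white ones on the TMM scale used here. The sequences are the 250 bases before the RefSeq start (GRCm38.p6), written 5′ to 3′ on the strand of the gene, with capitals at every match to the GC box core GGGCGG or the CCAAT box on either strand, neighbouring or overlapping matches running together. For Acsl1, which has 2 start windows in RefSeq, the upstream one is given. The windows lie at chr19:55253119-55253368 (Acsl5, plus strand), chr1:78657575-78657824 (Acsl3, plus strand), chr8:46470787-46471036 (Acsl1, plus strand) and chrX:142390536-142390785 (Acsl4, minus strand).
Acsl5: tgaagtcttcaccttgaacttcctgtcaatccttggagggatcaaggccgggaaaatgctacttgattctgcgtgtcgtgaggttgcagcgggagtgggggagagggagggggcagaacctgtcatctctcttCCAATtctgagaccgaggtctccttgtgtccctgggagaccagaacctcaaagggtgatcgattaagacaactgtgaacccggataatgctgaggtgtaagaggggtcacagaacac
Acsl3: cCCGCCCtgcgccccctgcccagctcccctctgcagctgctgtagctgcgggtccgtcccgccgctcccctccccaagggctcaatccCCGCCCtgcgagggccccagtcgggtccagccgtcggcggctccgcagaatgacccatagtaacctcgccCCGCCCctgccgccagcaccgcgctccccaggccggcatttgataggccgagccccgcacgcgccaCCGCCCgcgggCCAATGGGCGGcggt
Acsl1: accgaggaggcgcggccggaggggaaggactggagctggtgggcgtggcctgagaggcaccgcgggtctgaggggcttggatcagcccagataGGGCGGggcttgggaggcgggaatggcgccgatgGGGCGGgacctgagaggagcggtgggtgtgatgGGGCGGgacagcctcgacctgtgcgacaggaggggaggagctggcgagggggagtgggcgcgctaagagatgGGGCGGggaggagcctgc
Acsl4: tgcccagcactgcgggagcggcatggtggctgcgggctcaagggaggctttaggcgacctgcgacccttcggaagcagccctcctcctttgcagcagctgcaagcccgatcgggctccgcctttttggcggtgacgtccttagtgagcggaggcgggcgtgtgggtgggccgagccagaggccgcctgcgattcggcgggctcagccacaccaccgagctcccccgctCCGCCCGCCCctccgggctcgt

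The Acsl5 window had 52.8% G and C with 7 CpG dinucleotides, close to the median of 52.4% over the 32851 windows of this length in the table, and held 1 CCAAT box and no GGGCGG. The Acsl3 window had 75.6% G and C, 28 CpG and 5 GGGCGG matches, the nearest of them joined to a CCAAT box 15 bases before the start. The upstream Acsl1 window had 72% G and C with 4 GGGCGG matches, and the Acsl4 window 70.8% with 2 overlapping ones. The second Acsl1 window, at chr8:46490716-46490965, had 48.4% G and C, 2 CpG and 2 CCAAT boxes on the opposite strand. The windows differ in where they lie: those of Acsl3, Acsl4 and the upstream one of Acsl1 end at the start of the gene as GENCODE M21 annotates it, while the RefSeq start of Acsl5 is 1431 bases inside its GENCODE gene, so how the Acsl5 window compares with the others depends on which start is taken. Over all windows, 32.7% held GGGCGG and 33.8% held CCAAT on either strand.

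The other 5 motifs were searched on both strands in the 8 windows of the 5 members. AGGTCA, the core that nuclear receptors bind, was present in 14% of all windows and among the members only in 1 of the 3 Acsl6 windows, with 2 matches. The PPAR response element, a pair of such cores 1 base apart in which a base of each core was free, can overlap AGGTCA and was present in 0.338% of all windows. TGACGTCA, the cyclic AMP response element, was present in 1.55%, CACGTG, the E-box, in 6.02%, and GAANNTTC, the unit of the heat shock element, in 6.69%. None of these 4 motifs was found in a member's window, which says only that these letters are not in these 250 bases.

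The effective library size behind CPM is the total scaled by the trimmed mean of M values (TMM), and levels between genes as CPM per kilobase (kb) of the longest protein-coding transcript. In these bulk samples, fewer cells of a type and less RNA per cell cannot be told apart. Per kb, Acsl1 had the highest level of the family in every library. In iBAT the mean level per kb was 641 ± 147 for Acsl1, 168 ± 28.7 for Acsl5, 16.8 ± 11.9 for Acsl3 and 5.45 ± 0.726 for Acsl4 (SD, n = 6). In iWAT the same levels were 483 ± 209, 14.1 ± 2.18, 4.08 ± 1.08 and 4.76 ± 0.548 CPM per kb.

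In eWAT they were 244 ± 64.9 for Acsl1, 11.8 ± 0.48 for Acsl5, 3.72 ± 0.608 for Acsl3 and 7.43 ± 8.13 CPM per kb for Acsl4. The mean of Acsl4 rested on eWAT ko replicate 3, at 24.0 CPM per kb, and was 4.12 ± 0.457 CPM per kb over the other 5 eWAT libraries. The level of Acsl5 lay between that of Acsl1 and those of Acsl3 and Acsl4 in all 3 tissue means. Acsl3 lay above Acsl4 in every iBAT library, by 1.21 to 5.15 times, and their ranges overlapped in both white tissues.

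The makeup of the family differed between brown and white tissue in the share of Acsl5. Of the summed Acsl level per kb, Acsl1 made up 77.0% ± 2.51 in iBAT, while the white tissues had 94.3% ± 3.85 (iWAT) and 90.3% ± 7.01 (eWAT; SD, n = 6). Acsl5 made up 20.5% ± 2.78 of the sum in iBAT, with 3.62% ± 2.68 of it in iWAT and 4.67% ± 1.41 in eWAT. The lowest Acsl5 share in an iBAT library was 17.6% and the highest in a white library 8.80%, in iWAT wt replicate 3, the iWAT library with the lowest Acsl1 level. Without the libraries set apart, Acsl5 made up 2.38% ± 0.684 in iWAT (n = 3) and 4.11% ± 0.411 in eWAT (n = 5). The shares depend on the length taken for each gene: with the union of all exons, 10483 bp for Acsl1 against 4864 bp for Acsl5, Acsl5 took 36.6% of the sum in iBAT, against 7.64% in iWAT and 9.46% in eWAT.

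**Figure D1:**
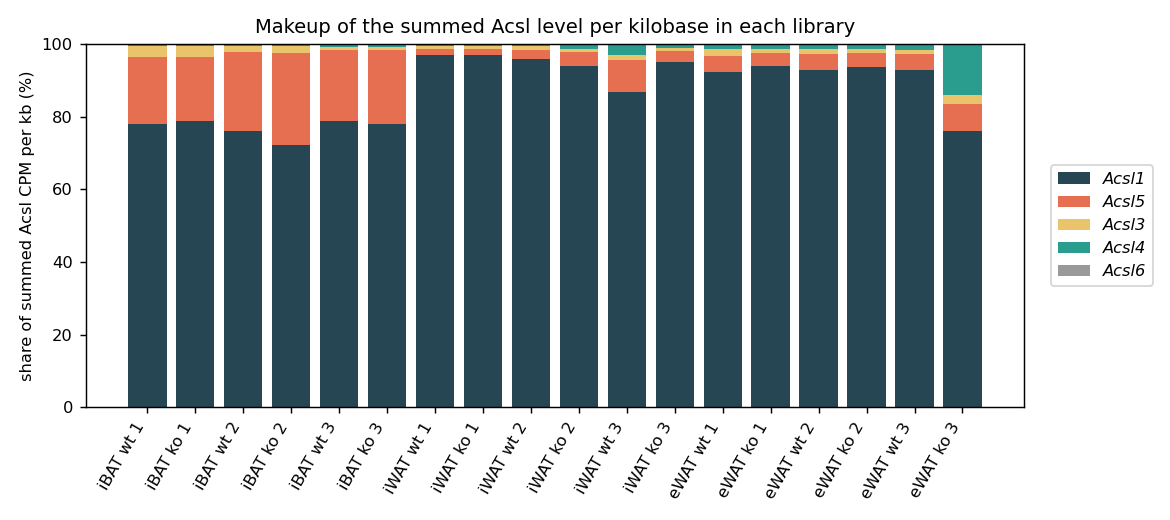
Stacked bars give the share of each member in the summed Acsl level per kb (percent, linear axis) in each of the 18 libraries, ordered by tissue. Acsl5 takes 17.6% to 25.4% in the iBAT bars and at most 8.80% in the white ones, and Acsl4 takes 14.1% in eWAT ko replicate 3.

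A ratio of 2 members within a library does not depend on how libraries are scaled, but it does depend on the lengths taken. Per kb, the level of Acsl5 was 0.268 ± 0.0461 times that of Acsl1 in iBAT (range 0.224 to 0.352), 0.0395 ± 0.0317 in iWAT (0.0165 to 0.101) and 0.0531 ± 0.0224 in eWAT (0.0366 to 0.0980), so the iBAT libraries lay above every white library. Without the libraries set apart this ratio was 0.0248 ± 0.00735 in iWAT (n = 3) and 0.0442 ± 0.00467 in eWAT (n = 5). With the union of all exons as length it came to 0.628 ± 0.108 in iBAT, against 0.0927 ± 0.0744 in iWAT and 0.125 ± 0.0525 in eWAT (n = 6), and the iBAT libraries still lay above every white one. The level of Acsl5 per kb was 31.0 ± 4.32 times that of Acsl4 in iBAT, 2.98 ± 0.476 times in iWAT and 2.47 ± 0.982 times in eWAT. The iBAT ratios of 25.3 to 38.4 did not overlap the white ones of 0.528 to 3.84, of which the lowest was that of eWAT ko replicate 3, and without it the eWAT ratio was 2.86 ± 0.273 (n = 5).

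Acsl1 (ENSMUSG00000018796.13, chr8:46471037-46536051, plus strand, GRCm38, GENCODE M21) has 11 annotated transcripts, 7 of them coding. Its level was 2031 CPM at the lowest, 2289 at the median and 3449.9 at the highest in iBAT. In the same order iWAT had 606, 1937 and 2689.5 CPM, with 504, 965 and 1276 CPM in eWAT. On this scale the iBAT and eWAT libraries did not overlap, while iWAT spanned from below most eWAT libraries into the iBAT range. Within the same mouse the level was higher in iBAT than in iWAT in 6 of 6 mice, by 1.07 to 3.37 times. With library totals as the only scale it was higher in 1 of 6. The 3.37 came from wild type mouse 3, whose iWAT library is among those set apart, and the next highest ratio was 1.43.

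Acsl5 (ENSMUSG00000024981.6, chr19:55251938-55297720, plus strand) encodes a form placed in the outer mitochondrial membrane and the endoplasmic reticulum, and has 6 transcripts, 4 of them coding. In iBAT its levels were 748, 763 and 552 CPM in the wild type libraries and 840.03, 811 and 576 CPM in the knockout libraries of replicates 1, 2 and 3. In iWAT they were 48.3, 68.8 and 66.9 CPM in wild type and 54.3, 68.4 and 52.1 CPM in knockout. In eWAT all 6 libraries lay between 48.1 and 53.8 CPM. Every iBAT library was thus higher than every white library by a wide gap, the 2 white tissues overlapped, and within iBAT both replicate 3 libraries were the lowest.

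Within the same mouse, the Acsl5 level in iBAT was 8.26 to 15.5 times that in iWAT (median 11.5) and 10.7 to 16.5 times that in eWAT (median 15.3). The fitted log2 difference of Acsl5 was 3.58 (SE 0.14) between iBAT and iWAT and 3.83 (SE 0.14) between iBAT and eWAT. Beside it, the fitted log2 differences of Acsl1 were 0.41 (SE 0.30) and 1.39 (SE 0.31), those of Acsl3 2.04 (SE 0.38) and 2.18 (SE 0.38), and those of Acsl4 0.21 (SE 0.37) and -0.32 (SE 0.38). The sign of Acsl4 against eWAT turned with 1 library: the log2 difference was 0.39 without the 4 libraries set apart, 0.46 in wild type libraries alone and 0.37 by limma voom. These 2 sets share the iBAT libraries and no test of them is given.

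For orientation, edgeR's quasi-likelihood test with Benjamini-Hochberg adjustment called 24% of all genes tested higher and 30.3% lower in iBAT than in iWAT, and 24.4% higher and 30.2% lower in iBAT than in eWAT. All 6 iBAT libraries lay above all 12 white libraries for Acsl5 and Acsl3, 2 of the 4 members tested, and for 14.7% of all genes tested, on the TMM scale. Nothing about the family is read from these counts, since the difference between brown and white tissue was known when it was chosen.

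The size of these differences depended on the scaling of the libraries. Genes of the mitochondrial genome took 22.9% to 27.0% of the counts in iBAT and 3.77% to 9.64% in the white tissues, and the factors of the TMM scaling lay between 0.617 and 0.744 for iBAT, against 1.06 to 1.44 for white libraries. With library totals as the only scale, an alternative chosen after seeing the data, the median log2 difference of all genes moved from -0.14 to -0.95 (iBAT against iWAT) and from -0.17 to -1.04 (iBAT against eWAT), and genes called higher and lower went from 4490 and 5674 to 1438 and 12804, and from 4565 and 5655 to 1579 and 13159. On that scale Acsl5 was still higher in iBAT, with log2 differences of 2.75 against iWAT and 2.95 against eWAT, as was Acsl3 with 1.22 and 1.25, but Acsl1 turned to -0.36 against iWAT and Acsl4 to -0.62. With the mitochondrial genes left out of the totals the values were 3.08 and 3.32 for Acsl5, 1.54 and 1.62 for Acsl3, -0.04 and 0.89 for Acsl1, and -0.30 and -0.88 for Acsl4.

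The separation of tissues also depended on the scale for Acsl1, Acsl3 and Acsl4. The iBAT libraries of Acsl5 lay above all white ones under both alternatives, in 6 of 6 mice, by 4.27 to 8.96 times against iWAT and 5.76 to 9.09 times against eWAT with library totals. Those of Acsl3 began at 18.1 CPM with library totals, below the highest white library at 23.8 CPM, and at 23.8 CPM without the mitochondrial genes, below 25.6 CPM. Acsl1 in iBAT, from 1410.3 CPM, overlapped eWAT, up to 1468 CPM, with library totals. Acsl4 in iBAT, up to 21.9 CPM, then lay below every white library, the lowest of which was at 23.6 CPM.

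**Figure D2:**
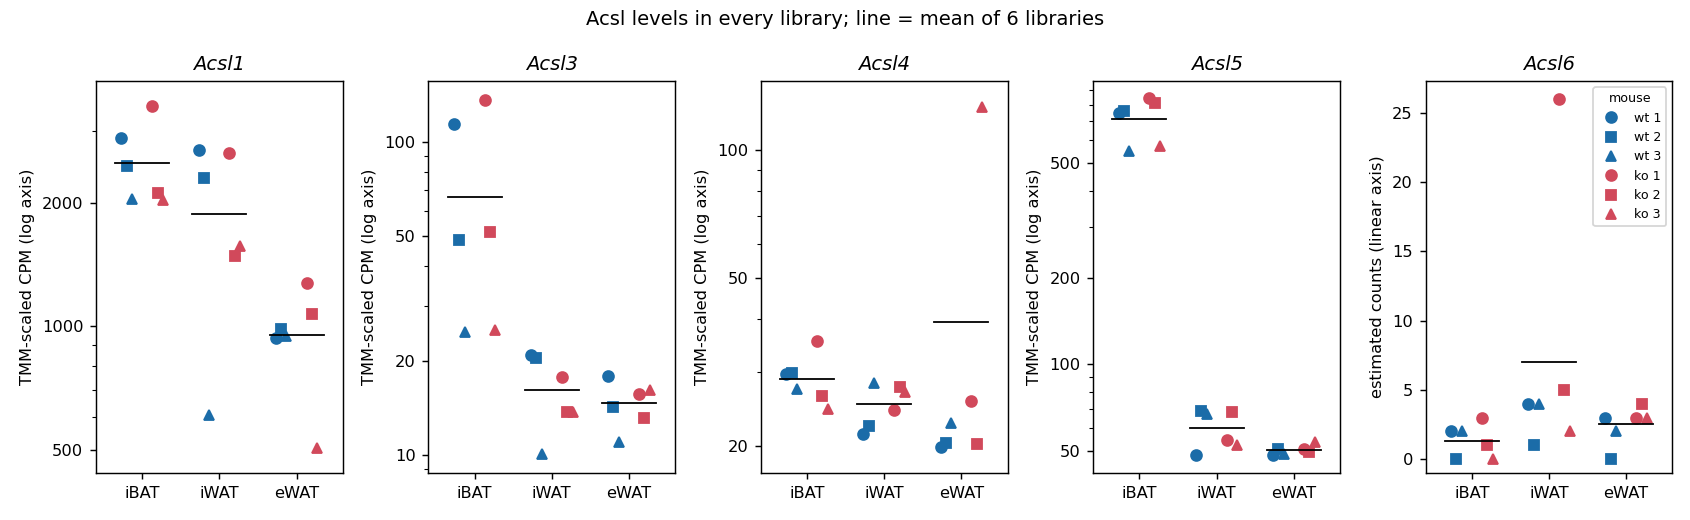
Points give each library's level by tissue, blue for wild type and red for knockout, with the marker shape giving the replicate number and a line the mean of 6 libraries. The first 4 panels show TMM-scaled CPM on a log axis and the Acsl6 panel shows estimated counts on a linear axis. Acsl5 lies at 552 to 840.03 CPM in iBAT and 48.1 to 68.8 CPM in white tissue, and the iBAT points of Acsl3 spread from 24.7 to 136 CPM.

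Acsl3 (ENSMUSG00000032883.15, chr1:78657825-78707743, plus strand) encodes a form known from the endoplasmic reticulum and the surface of growing lipid droplets. Of the 4 members tested it had the widest spread in iBAT relative to its mean (66.5 ± 47.1 CPM, SD, n = 6). In replicates 1, 2 and 3 its level was 114, 48.4 and 24.7 CPM in the wild type and 136, 51.3 and 25.05 CPM in the knockout libraries. Libraries with the same number were thus close together across genotypes while the numbers lay far apart. The labels do not say what mice of the same number share across genotypes. On the TMM scale all 6 iBAT libraries were higher than the 12 white ones.

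In iWAT the level of Acsl3 was 10.1 at the lowest, 15.8 at the median and 20.8 CPM at the highest, and in eWAT 11.01, 14.96 and 17.9 CPM. Within a mouse it was 1.82 to 7.63 times higher in iBAT than in iWAT and 1.56 to 8.66 times higher in iBAT than in eWAT, in 6 of 6 mice each, though in 5 of 6 against eWAT with library totals as the only scale. The summed brown adipocyte markers also differed between the iBAT libraries, at 11644, 9613 and 7826 CPM in wild type and 12604, 10989 and 7310 CPM in knockout replicates 1, 2 and 3, and their part in the spread of Acsl3 was not tested.

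Acsl4 (ENSMUSG00000031278.12, chrX:142317993-142390535, minus strand) encodes a form that prefers arachidonic acid and other polyunsaturated fatty acids and is known for the part of such lipids in ferroptosis. On the TMM scale its levels lay close together across tissues: 24.5 at the lowest, 28.4 at the median and 35.5 CPM at the highest in iBAT, and 21.3, 25.6 and 28.3 CPM in iWAT. In eWAT, 5 libraries lay between 19.9 and 25.6 CPM, and eWAT ko replicate 3 lay at 127 CPM with 2559 counts. All 3 tissues overlapped, and within a mouse Acsl4 was higher in iBAT than in iWAT in 3 of 6 mice and higher in iBAT than in eWAT in 5 of 6, with a median ratio of 1.34 for the latter and 0.193 in knockout mouse 3. Scaled by library totals alone, it was higher in iBAT in 0 of 6 mice in both comparisons.

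Acsl6 (ENSMUSG00000020333.17, chr11:54303798-54364756, plus strand) encodes a form best known from brain. It had 0 to 3 counts in the iBAT libraries and 0 to 4 in the eWAT libraries. In iWAT it had 4, 1 and 4 counts in wild type and 26, 5 and 2 counts in knockout replicates 1, 2 and 3. A count of 0 allows up to 3 counts, 0.0728 to 0.235 CPM depending on the library, so Acsl6 lay at or near the limit of detection in all libraries but that with 26 counts, and no fold is given between tissues. The highest count stood in iWAT ko replicate 1, the library with the skeletal muscle genes, and their part in it was not tested.

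The contrast between the white tissues did not enter the choice of the family. Of the 4 members tested, 1, Acsl1, was called different between iWAT and eWAT by edgeR's quasi-likelihood test with Benjamini-Hochberg adjustment over all genes. It was higher in iWAT. Over all genes tested, 5.7% were called higher and 4.5% lower in iWAT.

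Acsl1 levels were 2689.5, 2303 and 606 CPM in wild type and 2653, 1480.5 and 1572 CPM in knockout replicates 1, 2 and 3 of iWAT. In eWAT they were 934, 982 and 948 CPM in wild type and 1276, 1069 and 504 CPM in knockout. The groups overlapped through iWAT wt replicate 3, and the level was higher in iWAT in 5 of 6 mice, by up to 3.12 times, with wild type mouse 3 at 0.639 times.

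The log2 fold change of Acsl1 between iWAT and eWAT was 0.98 (SE 0.31, 95% interval 0.34 to 1.63, adjusted p = 0.0497 by edgeR with Benjamini-Hochberg adjustment). The call stood just inside the threshold and was lost in 17 of 18 fits that left out 1 library, with adjusted p up to 0.0998, and was kept without iWAT wt replicate 3 (1.17). The other values ran from 0.84 to 1.09, so the size moved little. Within wild type mice alone the log2 fold change was 0.97 (adjusted p = 0.407) and within knockout mice 1.002 (adjusted p = 0.375), both by the same edgeR test.

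The lowest iWAT libraries for Acsl1, wt replicate 3 and ko replicate 2, were those with the highest lymphocyte markers, and all 8 lymphocyte genes were above 3 counts in both. Their summed macrophage markers were also the highest, at 626 and 750.3 CPM against 175 to 393 CPM in the other iWAT libraries, and the part of either cell type in the level of Acsl1 was not tested. Their summed adipocyte markers (6 genes such as Adipoq and Plin1) were 9785 and 14096 CPM. In eWAT ko replicate 3, the lowest eWAT library for Acsl1, they summed to 12115 CPM, and in the other white libraries to 20105 to 29056 CPM. Without the 2 iWAT libraries, an alternative added after seeing the data, the log2 fold change of Acsl1 was 1.28 (adjusted p = 0.00387), and without all 4 libraries set apart by markers of other tissues it was 1.07 (adjusted p = 0.00463, edgeR with Benjamini-Hochberg adjustment).

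The other members did not pass the test between the white tissues. Acsl5 had a log2 fold change of 0.25 (95% interval -0.01 to 0.51, adjusted p = 0.211 by edgeR) and was higher in iWAT in 5 of 6 mice, or 3 of 6 with library totals. Acsl3 had 0.13 (95% interval -0.64 to 0.91) and Acsl4 -0.53 (-1.32 to 0.26), the latter 0.12 without the 4 libraries. No member separated all 6 iWAT from all 6 eWAT libraries, as 2.3% of all genes did with iWAT above. For Acsl5, the interval leaves out any change between the white tissues larger than 0.51 on the log2 scale. The fit behind it does not pair the white libraries of the same mouse.

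**Figure D3:**
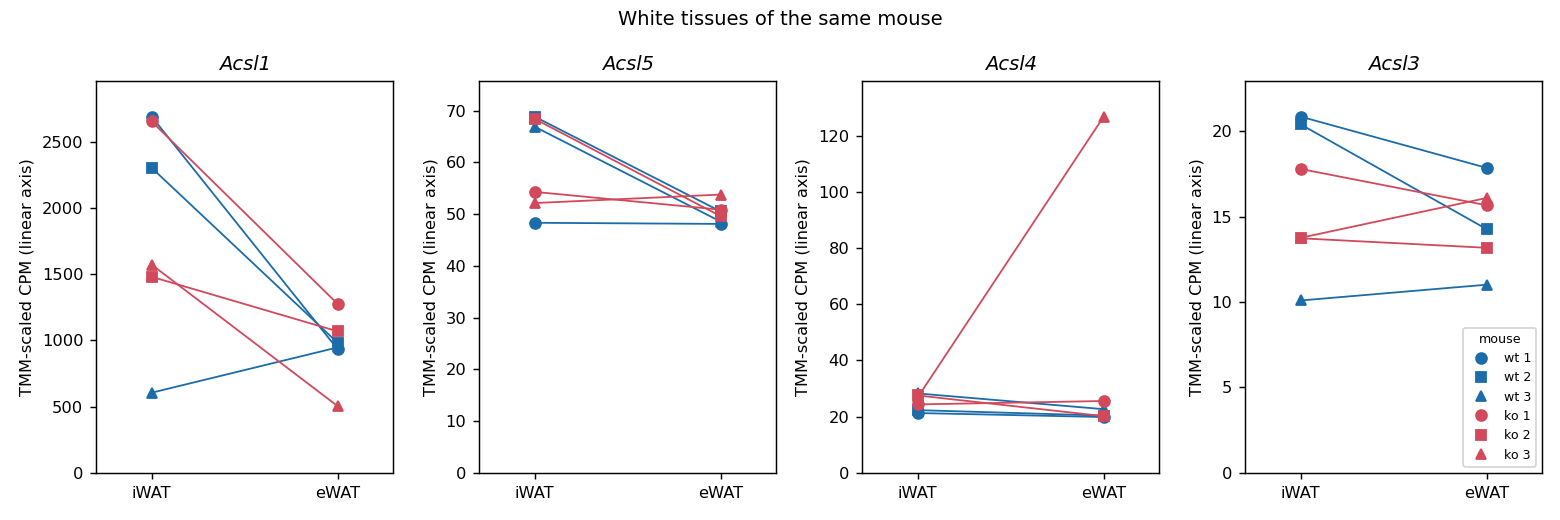
Lines join the iWAT and eWAT level of each mouse in TMM-scaled CPM on linear axes, blue for wild type and red for knockout. Acsl1 falls from iWAT to eWAT in 5 of 6 mice, Acsl5 stays between 48.1 and 68.8 CPM, and the Acsl4 line of knockout mouse 3 climbs to 127 CPM in eWAT.

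Loss of Gm15551 was compared to ask whether the noncoding RNA alters these genes. By edgeR's quasi-likelihood test with Benjamini-Hochberg adjustment, 0 of 4 members were called between knockout and wild type across tissues, in iBAT, in iWAT or in eWAT, or for a genotype effect that differed between tissues. At an unadjusted p under 0.05 the counts were 0, 0, 0, 1 and 0, the 1 being Acsl4 in eWAT. DESeq2 gave the same counts, with no adjusted p for Acsl4 across tissues, and limma voom gave 0 throughout. Over all genes, 0.00534% were called across tissues and 0.00534% in eWAT, each time Gm15551 itself, where DESeq2 called 4 and 13 genes and limma voom 2 and 3. EdgeR called none in iBAT (0%), in iWAT (0%) or for the interaction (0%), where 238, 415 and 264 genes had an unadjusted p under 0.05. In those last comparisons DESeq2 called 13, 4 and 0 genes and limma voom 0, 0 and 0.

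Acsl5 was measured most closely: its log2 fold change by genotype was 0.03 across tissues (95% interval -0.18 to 0.25), 0.11 in iBAT (-0.28 to 0.50), -0.07 in iWAT (-0.47 to 0.32) and 0.07 in eWAT (-0.33 to 0.46). The log2 fold change across tissues was 0.02 for Acsl1 (-0.50 to 0.54), 0.02 for Acsl3 (-0.61 to 0.65) and 0.52 for Acsl4 (-0.13 to 1.17), and every adjusted p was 0.9999 by edgeR. For Acsl4 the log2 fold change by genotype was -0.01 in iBAT and 0.13 in iWAT. Across tissues it ran from 0.08 to 0.59 when 1 library was left out. No knockout group lay wholly above or below its wild type group for any member tested. Changes within these intervals are not excluded with 3 mice per genotype. Since the 3 libraries of a mouse are not independent, intervals across tissues are too narrow.

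The log2 fold change of Acsl4 in eWAT was 1.45 (95% interval 0.43 to 2.48, unadjusted p = 0.0087, adjusted p = 1 by edgeR), and it rested on 1 library. The wild type levels were 19.9, 20.4 and 22.7 CPM and the knockout levels 25.6, 20.2 and 127 CPM. Without eWAT ko replicate 3 and the other 3 libraries set apart by markers it was 0.12. In that library 4 of 7 epididymis genes and 6 of 6 testis genes were above every other eWAT library, Lcn9 was at 0, and the part of such tissue in the level of Acsl4 was not tested.

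The other genes that make or use acyl-CoA give the setting, and here the comparisons of iBAT with the white tissues are tested. Oxidation genes had the highest median difference of 6 lists. Of 14 genes for acyl-CoA entry into mitochondria and peroxisomes and for their oxidation, 10 were called higher and 3 lower in iBAT than in iWAT, and 11 higher and 3 lower in iBAT than in eWAT, with median log2 fold changes of 2.49 and 2.95 beside -0.14 and -0.17 over all genes, of which 24% and 24.4% were called higher and 30.3% and 30.2% lower. Cpt1b, the carnitine palmitoyltransferase of muscle and brown fat, was 6.13 (SE 0.38) and 8.13 (SE 0.42) higher on the log2 scale. Slc25a20, the carnitine carrier, was 3.30 and 3.80 higher, and Hadhb, a subunit of the trifunctional protein, 3.47 and 4.55.

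The lower ones were Cpt1a, the liver form of that transferase (-1.60 and -2.11), Cpt1c, its brain form (-1.88 and -1.66), and Abcd2, a peroxisomal acyl-CoA carrier (-2.20 and -2.65). Between the white tissues 5 of 14 oxidation genes were called higher in iWAT and 0 lower, beside 5.7% and 4.5% of all genes tested. Their median log2 fold change was 0.51, beside 0.01 over all genes. The 5 were Cpt1b (2.0004), Acadl (1.204), Hadhb (1.078), Acadvl (0.82) and Hadha (0.81). Without the 4 libraries set apart by markers of other tissues, an alternative chosen after seeing the data, 9 were called higher and 1 lower. No share over all genes is given for fits without these libraries. The summed brown adipocyte markers were also higher in every iWAT than in every eWAT library, and their part in these differences was not tested.

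Of 19 other acyl-CoA synthetases, 14 were tested. In iBAT, 9 were called higher and 4 lower than in iWAT, and 8 higher and 3 lower than in eWAT, with median log2 fold changes of 0.89 and 0.98. Over all genes tested the shares were 24% higher and 30.3% lower against iWAT, and 24.4% and 30.2% against eWAT. Without the 4 libraries set apart the median against iWAT was 0.57. Acss1, the mitochondrial acetyl-CoA synthetase, was 3.79 (SE 0.18) and 4.98 (SE 0.19) higher on the log2 scale, close to or above Acsl5. Slc27a2, a very long-chain synthetase and fatty acid transport protein, was 7.12 (SE 1.16) and 6.73 (SE 1.14) higher, and Acsf3, the malonyl-CoA synthetase of mitochondria, 2.32 and 2.63.

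Slc27a1, a fatty acid transport protein of adipocytes and muscle, was called lower in iBAT than in iWAT (-0.98). Slc27a3, another member of that transport protein family, was called lower in iBAT in both comparisons (-0.99 and -0.71). Between the white tissues, Acss2, the cytosolic acetyl-CoA synthetase (1.79), Acsf2 (1.44) and Acss1 (1.19) were called higher in iWAT and Slc27a4 lower (-0.53), 3 and 1 of 14. Over all genes tested, 5.7% were called higher and 4.5% lower in iWAT. Without the 4 libraries Slc27a4 was not called (-0.38, adjusted p = 0.101 by edgeR). With library totals as the only scale, 5 synthetases were called higher and 6 lower in iBAT than in iWAT, and 6 higher and 5 lower than in eWAT. All 18728 genes then gave 1438 higher and 12804 lower against iWAT, and 1579 and 13159 against eWAT.

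The storage route came next. Of 16 esterification genes 15 were tested, and 7 were called higher and 4 lower in iBAT than in iWAT, 6 and 4 against eWAT, with medians of 0.37 and 0.42, or 0.18 and 0.28 without the 4 libraries set apart. The shares over all genes were 24% higher and 30.3% lower against iWAT, and 24.4% and 30.2% against eWAT. Scaling by library totals alone gave 4 higher and 8 lower against iWAT, and 3 and 8 against eWAT. Of all 18728 genes, 1438 were then called higher and 12804 lower against iWAT, and 1579 and 13159 against eWAT. The higher ones included Gpam, the mitochondrial glycerol-3-phosphate acyltransferase (1.74 and 1.27), Gpat4, its form in the endoplasmic reticulum (1.60 and 1.44), and Agpat3, which adds the next acyl chain (1.74 and 1.83). Gpat3, the form best known from white adipocytes, was the lowest of the list (-2.90 and -3.38). Between the white tissues edgeR and DESeq2 called 0 of 15, and limma voom called 2 lower in iWAT. By edgeR 1 of the 15 had an unadjusted p under 0.05. Of all genes tested, edgeR called 5.7% higher and 4.5% lower in iWAT.

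Of 9 phospholipid remodelling genes, 2 were called higher and 4 lower in iBAT than in iWAT and 3 and 3 against eWAT, with medians of -0.26 and -0.70, beside the same shares of 24% and 30.3%, and 24.4% and 30.2%, over all genes. The median against eWAT turned to 0.26 without the 4 libraries set apart, where 4 genes were called higher and 4 lower. Among them, eWAT ko replicate 3 had 76.3 CPM of Mboat2, a lysophospholipid acyltransferase, against at most 3.30 CPM in the other eWAT libraries. Gpx4, which clears lipid peroxides, was 1.85 and 1.70 higher, and Mboat7, which puts arachidonic acid into phosphatidylinositol, 0.60 and 0.80. Called lower against iWAT were Mboat1 (-2.64), Lpcat2 (-2.54), Lpcat4 (-1.14) and Lpcat1 (-0.78). Mboat1, Lpcat4 and Lpcat1 were also called lower against eWAT. With library totals as the only scale, 1 gene of the list was called higher in each comparison. On that scale 5 were called lower against iWAT and 7 against eWAT. Beside them, 12804 and 13159 of all 18728 genes were then called lower, and 1438 and 1579 higher. Lpcat2 was the only gene of the list called between the white tissues, higher in iWAT (1.57, adjusted p = 0.0498 by edgeR with Benjamini-Hochberg adjustment). Of all genes tested, 5.7% were called higher in iWAT. With the mouse as a block, with limma voom, or without the 4 libraries set apart Lpcat2 was not called.

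Of 6 acyl-CoA binding genes 5 were tested, and 3 were called higher in iBAT than in iWAT and 4 against eWAT, with medians of 0.55 and 0.60, beside 24% and 24.4% of all genes called higher. Dbi, the acyl-CoA binding protein itself, was 0.91 and 0.97 higher. With library totals as the only scale, edgeR called 0 binding genes higher and 3 lower in both comparisons. Over all 18728 genes it then called 1438 higher and 12804 lower against iWAT, and 1579 and 13159 against eWAT.

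Of 10 regulators of lipid genes, 7 were called higher and 0 lower in iBAT in either comparison, with medians of 2.06 and 2.30, beside 24% and 24.4% of all genes called higher and 30.3% and 30.2% lower. Ppara, a nuclear receptor that turns on oxidation genes, was 3.97 (SE 0.44) and 5.30 (SE 0.48) higher, Ppargc1b, a coactivator, 3.76 and 4.07, and Esrra, a receptor it works with, 2.22 and 2.40. Mlxipl, which turns on genes of fatty acid synthesis in response to glucose, was 1.90 and 2.20 higher. With library totals as the only scale 6 regulators were called higher and 3 lower in each comparison. Of all 18728 genes, 1438 were then higher and 12804 lower against iWAT, with 1579 and 13159 against eWAT. Between the white tissues edgeR called 0 of 10 regulators and 0 of 5 binding genes, with 1 of each at an unadjusted p under 0.05, DESeq2 called 1 of each higher in iWAT, and limma voom called 0 regulators and 1 binding gene. Of all genes tested, edgeR called 5.7% higher and 4.5% lower in iWAT. Without the 4 libraries 2 regulators and 1 binding gene were called higher in iWAT by edgeR. Between genotypes across tissues edgeR, DESeq2 and limma voom called 0 genes of the 6 lists, and 0 had an unadjusted p under 0.05 by edgeR.

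**Figure D4:**
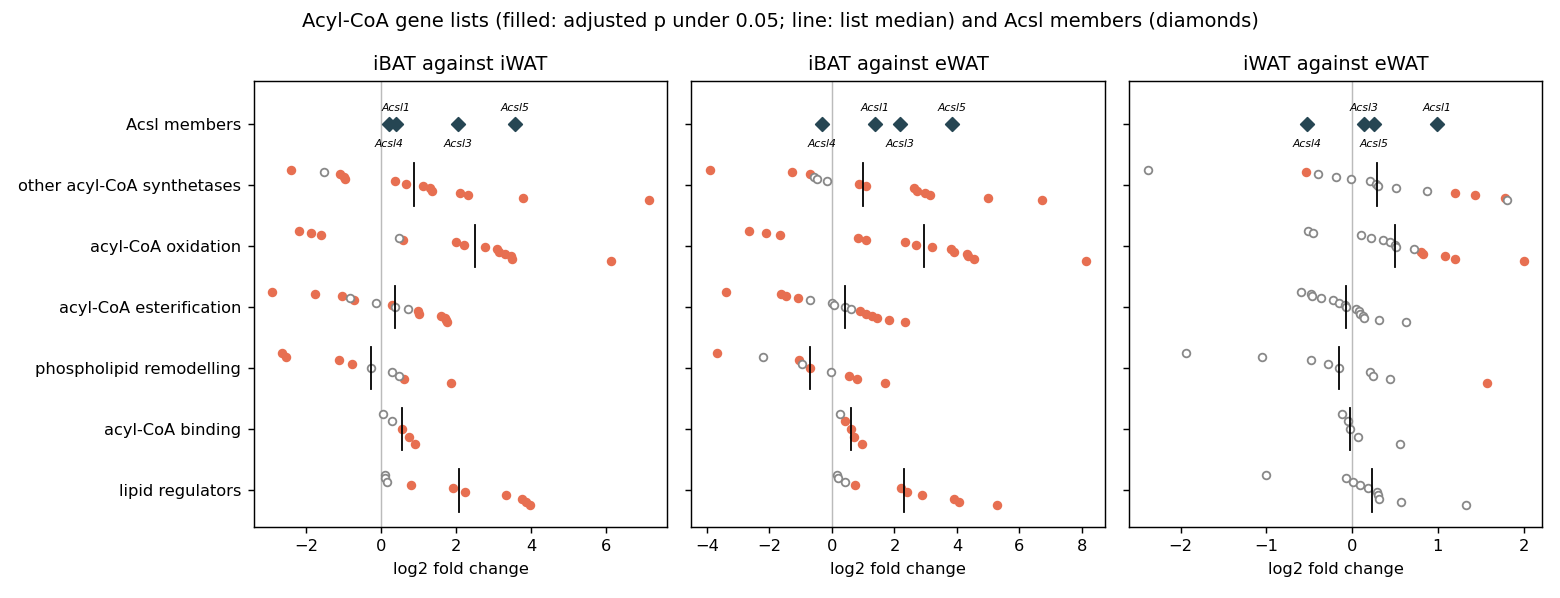
Each point is a gene of a list, placed by its log2 fold change in iBAT against iWAT, iBAT against eWAT and iWAT against eWAT, filled where adjusted p was under 0.05, with a line at the list median. Diamonds give the Acsl members, without a test in the panels with iBAT. In those panels Acsl5, by which the family was chosen, lies at 3.58 and 3.83, and the oxidation medians lie at 2.49 and 2.95. Acsl1, Acsl3 and Acsl4 lie to the left of both medians.

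The genes whose profile over the 18 libraries was most like that of a member were ranked by the root mean square difference of log2 CPM, each gene centred at its own mean. For Acsl5 these were Mrps36 (0.315), mt-Tn (0.349), Suclg1 (0.355), Pgap4 (0.363) and Letmd1 (0.369), where the closest 1% of genes lay within 0.668 and the median gene at 1.88. Mrps36 encodes a small mitochondrial protein and Suclg1 a subunit of succinyl-CoA ligase in the citric acid cycle. In iBAT the level of Suclg1 was 1098 to 1438 CPM against 61.5 to 150.5 CPM in the white libraries. The tissues set these distances, and mt-Tn, a transfer RNA of the mitochondrial genome, had at most 4.93 CPM.

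For Acsl1 the closest were Ccdc3 (0.232), Chn1 (0.286) and H4c8 (0.290). Ccdc3 repeated the low iWAT value of wt replicate 3 (27.997 CPM, against 51.9 to 113 CPM in the other iWAT libraries) and the low eWAT value of ko replicate 3 (14.1 CPM, against 26.3 to 40.0 CPM). For Acsl4 the closest were Rufy1 (0.199), Rbm10 (0.226) and Rprd1a (0.233). All 3 shared the single high library: in eWAT ko replicate 3 their levels were 86.0, 148 and 130.2 CPM, against 19.0 to 22.5, 29.4 to 38.7 and 23.3 to 26.7 CPM in the other eWAT libraries.

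For Acsl3 the closest were Shb, an adaptor protein (0.348), Ciart, a repressor of the circadian clock (0.363), and Hspb1, a small heat shock protein (0.367). In iBAT the level of Ciart was 19.7, 13.9 and 5.88 CPM in wild type and 25.1, 14.95 and 6.50 CPM in knockout replicates 1, 2 and 3. Shb showed 75.9, 35.8 and 25.2 CPM and 74.9, 34.2 and 32.9 CPM. Hspb1 showed 667, 273 and 132 CPM and 536, 250.4 and 202 CPM. The order of the replicate numbers was thus that of Acsl3 in both genotypes for all 3 genes, and these values are a description of genes chosen for their likeness.

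**Figure D5:**
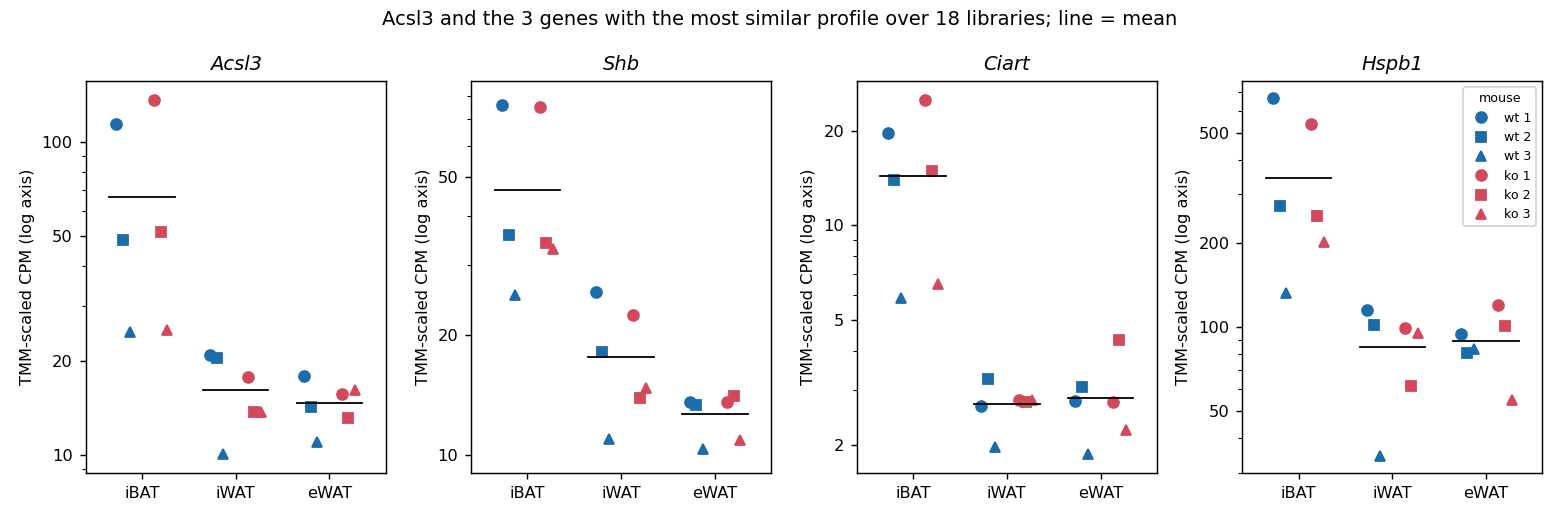
Points give Acsl3 and its 3 closest profiles in every library in TMM-scaled CPM on log axes, with the same colours and shapes by mouse as in the plot of Acsl levels and a line at the mean of each tissue. In iBAT the replicate 1 libraries are the highest and the replicate 3 libraries the lowest for all 4 genes, as in Acsl3 with 114 and 136 against 24.7 and 25.05 CPM.

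Among the members themselves, the profiles of Acsl1 and Acsl3 were nearest (0.752) and those of Acsl4 and Acsl5 farthest apart (1.80). Acsl5 lay nearer to Acsl3 (1.03) than to Acsl1 (1.43). No member was among the closest profiles of another.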

How the data were processed

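Reads of the polyadenylated RNA were trimmed by the authors with cutadapt and quantified with salmon on the GENCODE M22 transcripts (GRCm38), alone or joined with RNAcentral, and the deposited table gives their estimated counts for each gene, unscaled and in whole numbers. Which reference and strand setting were used is not given in the sources used here. Salmon divides reads shared between genes by a model, and the step from transcripts to genes is not described. Positions and transcript lengths came from GENCODE M21, which held 54094 of 54347 identifiers.

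Genes with low counts were left out by filterByExpr (minimum count 10, by group), TMM scaled the libraries, and the test was edgeR's quasi-likelihood F-test (edgeR 4.0.16, R 4.3.3), checked on simulated data. A model of tissue and genotype gave the tissue contrasts and the genotype effect across tissues. A model with a mean for each group gave the genotype effect in single tissues and the interaction. Benjamini-Hochberg adjustment covered the 18728 genes that passed, and the threshold was 0.05. An SE is the size of the log2 fold change over the root of F. Depths of 14997901 to 34389586 counts limit low genes, and a count of 0 was read as up to 3 counts, which covers counting error only. Promoter windows came from RefSeq.

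The family, the lists and the 4 libraries set apart were chosen with earlier results of these data known. The genes named are the members, up to 4 genes of each list, contrast and direction with the smallest p-values or a list's called genes as a group, and the 3 closest profiles of each member (5 for Acsl5), with Gm15551 to check the labels. Mouse identifiers pair libraries across tissues. Same-numbered wild type and knockout libraries were not paired, since the correlation of their deviations from the group means was 0.65, 0.07 and 0.52 in iBAT, 0.70, -0.56 and -0.28 in iWAT and -0.10, 0.30 and -0.09 in eWAT. Alternatives were the size factors of DESeq2 1.42.0, DESeq2 itself, limma 3.58.1 voom with quality weights, other filters, a mouse or replicate block, counts summed per mouse, fewer libraries, and scaling by library totals.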

Additional observations from a re-analysis of the deposited data

Results flagged for a closer look

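In the 15 combinations of member and tissue, each with 6 libraries, 3 had a library at an end of the range whose gap to the next one, divided by the whole range, was over the limit of the Dixon test. Chance gives about 1 such group in 20. Acsl4 in eWAT ko replicate 3 was at 126.7 CPM (2559 counts), with the next eWAT library at 25.6 CPM (gap over range 0.947). Acsl6 in iWAT ko replicate 1 was at 1.005 CPM (26 counts), with the next iWAT library at 0.214 CPM (0.815). Acsl6 in eWAT wt replicate 2 was at 0 CPM, with the next at 0.0970 CPM (0.653), and all 6 of these eWAT libraries had 4 counts or fewer. The 2 high libraries are those with the highest epididymis and skeletal muscle markers, and the part of such tissue in the levels was not tested.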

How the results depend on the processing

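The call of Acsl1 between iWAT and eWAT depended on the processing. Its log2 fold change was 0.98 without a filter (adjusted p = 0.0694), 0.97 with only the libraries compared (0.139), 0.97 in wild type (0.407) and 1.002 in knockout libraries alone (0.375), all by edgeR with Benjamini-Hochberg adjustment, and in each of these 0 members were called in place of 1. Leaving out 1 library gave 0.84 to 1.17 and 0 to 1 members called. The call held with DESeq2 (0.99, adjusted p = 0.0100), limma voom (1.09, 0.000730), library totals (0.89, 0.0294) and totals without mitochondrial genes (0.93, 0.0286), over an adjusted p range of 0.000730 to 0.407 in 31 alternatives. With the union of exons as length, Acsl1 took 58.6% and Acsl5 36.6% of the summed level per kb in iBAT, 87.5% and 7.64% in iWAT, and 80.0% and 9.46% in eWAT; leaving out 1 library gave 76.6% to 77.9% and 19.5% to 21.1% in iBAT, 93.7% to 95.7% and 2.59% to 4.03% in iWAT, and 89.6% to 93.2% and 4.11% to 4.91% in eWAT.

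With the mouse as a replicate block, the log2 fold change of Acsl1 was 0.91 (adjusted p = 0.0390 by edgeR) and that of Acsl5 0.24 (0.241), and no member's call changed. With the replicate number as a block, 0 members were called between genotypes, as with counts summed per mouse. In the genotype and interaction tests 0 members were called in every alternative run. The log2 difference of Acsl4 between iBAT and eWAT, -0.32, had no stable sign, with -1.26 to 0.46 over 31 alternatives. The cause of these shifts was not tested. For Acsl6, depth limits any comparison.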
